A study of Arabidopsis thaliana with 18 samples.

Results

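The genes described here are 10 members of the Arabidopsis pectin methylesterase and inhibitor family, taken by their locus identifiers from a table of 27416 genes. They are AT5G04960, AT5G62340, AT3G05620, PME1 (AT1G53840), PME2 (AT1G53830), PME3 (AT3G14310), PME17 (AT2G45220), PME41 (AT4G02330), PME44 (AT4G33220) and PME18 (AT1G11580). AT5G04960 and AT5G62340 were chosen by their log2 fold changes with tunicamycin, which in earlier results of these data were among the largest falls in both mutants. AT3G05620 stands among the 22 genes called higher in untreated double mutant than in untreated wild type, and its difference there is given as a description. The choice of the other 7 was made with results of these data known. No p-value is therefore given for any member's response to tunicamycin, and whether a response passed the threshold of the fit is stated as a description of it.

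RNA sequencing of polyadenylated transcripts was performed on whole Arabidopsis seedlings 7 days old, in 18 libraries that fall into 6 groups of 3. Seedlings labelled as the ire1a ire1b double mutant (ire1a1b), as the ire1b mutant and as wild type (WT) were each held for 6 h with 5 µg/mL tunicamycin (TM), an inhibitor of N-glycosylation that causes stress in the endoplasmic reticulum, or with the solvent DMSO. All groups share the seedling age and the time of treatment, and the labels name no allele for either mutant. IRE1A and IRE1B encode kinase-ribonucleases of the endoplasmic reticulum membrane that splice the bZIP60 transcript under such stress. Nothing in the labels shows that the 3 libraries of a group were grown apart, and the p-values then reflect only how these libraries vary, which may be technical.

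Libraries held 16347549 to 24848852 reads counted in genes. IRE1A lay at 19.9 to 24.7 reads per 1000000 counted in genes (CPM) in the 6 libraries labelled ire1a1b, against 79.7 to 103 CPM in the other 12. IRE1B was not lower in any mutant group, at 35.5 to 47.5 CPM in libraries labelled ire1a1b, 35.5 to 47.2 CPM in those labelled ire1b and 28.04 to 36.8 CPM in WT, so these groups are called by their labels throughout. BIP3, an endoplasmic reticulum chaperone gene that answers to TM, averaged 102 CPM with TM and 1.27 CPM with DMSO in libraries labelled ire1a1b, 2810 and 11.3 CPM in those labelled ire1b, and 2885 and 2.63 CPM in WT. The first libraries of WT and of ire1a1b, 4 in all, stood apart on the second principal component (scores of 31.0 to 47.5, against -27.1 to 3.51 in the other 14), and the members' log2 fold changes and the summed levels are given with and without them.

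Pectin methylesterases are secreted enzymes that remove methyl groups from homogalacturonan, the main pectin of the primary wall. The acid groups they free can be bridged by calcium, which stiffens the wall, or can open the chain to polygalacturonases and pectate lyases. Inhibitor proteins bind the enzymes in the wall, and many enzymes are themselves made with an inhibitor-like domain in front of the catalytic domain, which subtilisin-type proteases remove on the way through the secretory pathway. In seedlings the family is known for its part in cell elongation and in root hair growth.

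By the RefSeq annotation of TAIR10.1, 9 of the 10 members are enzymes that carry both an inhibitor-like and a catalytic domain, with proteins of 511 residues (PME17) to 592 residues (PME3). AT5G62340, at 206 residues, is the only member of inhibitor type without the catalytic domain. AT5G04960, 564 residues long, belongs to the enzymes by its annotation. PME2 and PME3 were the closest pair, identical at 81.0% of 579 aligned residues, while the other pairs of enzymes shared 39.0% to 54.0%. PME1 and PME2 are neighbours on the same strand of chromosome 1 (TAIR10.1 chr1:20101299-20103690 and chr1:20098522-20100978). The symbol PME1 is also carried in the reference by AT4G12390, an inhibitor-type gene that is not the member described here, and the reference calls PME41 ATPMEPCRB and PME18 PMEPCRA.

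The promoters shown are those of AT5G04960 and AT5G62340, whose transcripts moved together across the groups, and that of PME17, the only member with a match to any of the 3 motifs searched. Each is the 200 bases before the annotated start, from the RefSeq TAIR10.1 genome and on the strand of the gene, and the capitals in PME17 mark the reverse complement of TGACGT, the core bound by many bZIP factors.
AT5G04960 promoter (plus strand, chr5:1461586-1461785): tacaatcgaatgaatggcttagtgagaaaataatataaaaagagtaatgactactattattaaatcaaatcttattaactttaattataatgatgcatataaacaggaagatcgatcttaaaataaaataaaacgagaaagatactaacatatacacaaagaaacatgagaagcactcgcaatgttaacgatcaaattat
AT5G62340 promoter (plus strand, chr5:25033271-25033470): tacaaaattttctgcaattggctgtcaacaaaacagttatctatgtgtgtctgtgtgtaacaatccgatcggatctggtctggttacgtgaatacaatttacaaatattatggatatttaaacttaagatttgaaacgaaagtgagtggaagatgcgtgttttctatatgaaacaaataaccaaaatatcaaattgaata
PME17 promoter (minus strand, chr2:18646607-18646806): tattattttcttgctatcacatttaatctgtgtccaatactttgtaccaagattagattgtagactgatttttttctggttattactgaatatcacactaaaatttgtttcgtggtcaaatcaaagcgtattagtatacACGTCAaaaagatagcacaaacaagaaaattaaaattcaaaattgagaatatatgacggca
TGACGT on either strand was found in 1 of the 10 members, against 6.62% of 26718 promoters of the same length. CACGTG, the G-box, which holds the ACGT shared with the bZIP core, was found in 0 of 10 members against 5.74% of all promoters, and the endoplasmic reticulum stress element (CCAAT, then 10 bases of any kind, then CACG) in 0 of 10 against 0.644%. In the 131 genes taken as the family by name these motifs were present in 8, 4 and 0 promoters, in the same order.

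The members spanned a wide range of levels. Per kilobase of exon in WT with DMSO, PME18, a pectin methylesterase also described as a ribosomal RNA N-glycosidase, was the most abundant at 246 CPM per kb, followed by PME3 at 102 and PME1 at 34.6 CPM per kb. PME17 at 29.5, PME41 at 21.4 and PME44 at 18.8 CPM per kb came next, and PME1, PME17, PME41 and PME44 overlapped each with its neighbour in this order across libraries. AT5G62340 followed at 13.0, AT5G04960 at 7.84, PME2 at 4.04 and AT3G05620 at 0.963 CPM per kb. PME18 and PME3 held the first and second places in all 6 groups, whereas AT5G04960 dropped to the last place in libraries labelled ire1a1b with TM, at 0.770 CPM per kb. All 10 members passed the filter on low counts, with 21 to 24 reads in the poorest library of AT5G62340, AT5G04960 and AT3G05620.

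With TM, at an adjusted p below 0.05 in edgeR's quasi-likelihood test over 20615 genes, 3 members were called lower and 2 higher in libraries labelled ire1a1b, where 6.59% of all tested genes were called lower and 8.27% higher. In libraries labelled ire1b, 7 were called lower and 1 higher, against 11.6% and 10.9% of all genes. In WT, 7 were called lower and 1 higher, against 5.77% and 6.13%. Since TM responses took part in the choice of members, nothing is read from these counts. The libraries are of whole seedlings, in which fewer cells of a type and less RNA per cell cannot be told apart.

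**Figure D1:**
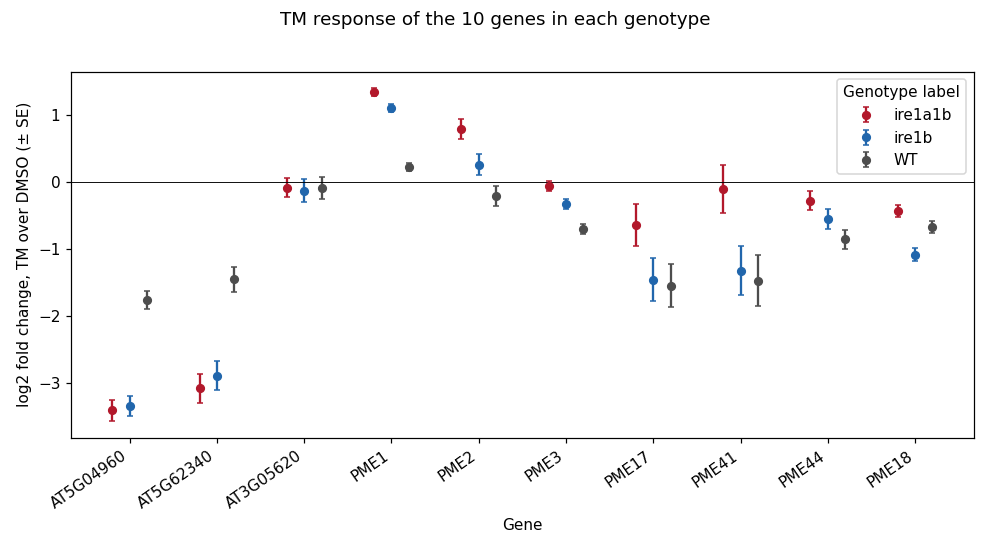
Log2 fold change of the 10 genes with TM over DMSO (vertical axis) in libraries labelled ire1a1b, ire1b and WT; points are edgeR estimates and bars their standard errors, from 3 libraries per group. AT5G04960 and AT5G62340 lie lowest in both mutant labels, PME1 and PME2 are highest in ire1a1b, and PME17 and PME41 lie near -1.5 in WT and nearer to 0 in ire1a1b.

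In libraries of both mutant labels the largest falls among the members were those of AT5G04960 and of the inhibitor-type gene AT5G62340, as they had to be by the choice of these genes. AT5G04960, for which the annotation note names the root hair gene RHS12 as best match, had 1.67, 2.13 and 1.16 CPM with TM in libraries labelled ire1a1b, against 16.4, 17.8 and 18.1 CPM with DMSO. It had 2.46, 1.95 and 2.21 CPM with TM in libraries labelled ire1b, against 22.2, 22.2 and 22.9 CPM with DMSO. In WT it had 5.16, 4.25 and 5.56 CPM with TM, against 14.8, 17.3 and 18.5 CPM with DMSO. All TM libraries lay below all DMSO libraries, and those of the mutant labels with TM lay below those of WT with TM. The log2 fold changes were -3.40 ± 0.16 in ire1a1b, -3.34 ± 0.15 in ire1b and -1.76 ± 0.14 in WT (SE, n = 3 per group), and without the first libraries of WT and ire1a1b they were -3.46, -3.33 and -1.87.

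AT5G62340 had 1.06, 1.18 and 1.21 CPM with TM in libraries labelled ire1a1b, against 8.60, 9.61 and 11.0 CPM with DMSO. In libraries labelled ire1b it had 0.908, 1.499 and 1.34 CPM with TM, against 8.18, 8.64 and 10.8 CPM with DMSO. In WT it had 3.24, 4.88 and 5.20 CPM with TM, against 11.3, 14.2 and 11.0 CPM with DMSO. Again no TM library reached the DMSO libraries of its genotype, and the mutant labels with TM lay below WT with TM. The log2 fold changes were -3.08 ± 0.21 in ire1a1b, -2.89 ± 0.21 in ire1b and -1.45 ± 0.18 in WT, against -3.10, -2.88 and -1.32 without those 4 libraries. Across the 18 libraries the log2 CPM of AT5G04960 and AT5G62340 had a Pearson r of 0.95, which rests on libraries that share their TM and DMSO groups and is given as a description. AT5G62340 made up 0.462% of the summed CPM of the 77 family genes annotated with an inhibitor domain alone in libraries labelled ire1a1b with TM and 3.24% with DMSO, 0.611% and 3.25% in those labelled ire1b, and 2.17% and 4.17% in WT.

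The genes whose log2 CPM was most like that of AT5G04960 over the 18 libraries were AGP3 (r = 0.99), MOP10, EXPA7, AT2G39040 and XTH26 (all r = 0.98), which encode an arabinogalactan protein, a pollen Ole e 1 and extensin family protein, an expansin, a peroxidase and a xyloglucan endotransglucosylase/hydrolase. For AT5G62340 they were AGP30, an arabinogalactan protein, and TIP4;1, a tonoplast aquaporin (both r = 0.98), then AT3G61270, AT2G39040 and AT2G24300 (r = 0.97). EXPA7 is one of 12 root hair markers examined, of which 10 were called lower with TM in libraries labelled ire1a1b, 12 in those labelled ire1b and 9 in WT, with none at zero. Of all tested genes 6.59%, 11.6% and 5.77% were called lower with TM in ire1a1b, ire1b and WT. The TM response of the root hair markers was called lower than that of WT for 1 of 12 in ire1a1b and 4 of 12 in ire1b. For all tested genes these shares were 2.4% and 1.6%. The summed CPM of these markers ranged from 74.4 to 79.6 with TM and from 177 to 189 with DMSO in libraries labelled ire1a1b. It ranged from 64.0 to 69.7 and from 198 to 199 in those labelled ire1b, and from 74.4 to 95.1 and from 148 to 183 in WT. Of 8 endodermis markers, 5, 5 and 6 were called lower in ire1a1b, ire1b and WT, with sums of 23.1 to 30.6 against 51.5 to 52.9 CPM, 22.5 to 29.1 against 46.3 to 49.96 CPM, and 31.3 to 34.8 against 49.9 to 53.2 CPM, TM against DMSO. Without the first libraries of WT and ire1a1b the root hair sums in WT were 74.4 to 95.1 against 165 to 183 CPM, those in ire1a1b 74.4 to 78.5 against 177 to 189 CPM, and the endodermis sums 31.3 to 31.6 against 51.3 to 53.2 CPM in WT and 27.1 to 30.6 against 52.4 to 52.9 CPM in ire1a1b. Of 7 green shoot markers, 0 were called by edgeR in any of the 3 TM responses, and 0 had an unadjusted p below 0.05. The part of these cell types in the falls of AT5G04960 and AT5G62340 was not tested.

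AT5G04960 ends 12 bases from AT5G04970, another pectin methylesterase on the opposite strand. AT5G04970 averaged 12.9 ± 1.21 CPM with TM and 7.97 ± 1.12 CPM with DMSO in libraries labelled ire1a1b (SD, n = 3), a log2 fold change of 0.70 ± 0.19 (adjusted p = 0.02 in edgeR's quasi-likelihood test). It averaged 9.52 ± 0.559 and 7.83 ± 1.25 CPM in those labelled ire1b, and 5.37 ± 1.90 and 8.21 ± 1.12 CPM in WT. The neighbour was called higher in ire1a1b and not in ire1b. With TM, AT5G04960 had 1.16 to 2.13 CPM in libraries labelled ire1a1b and 1.95 to 2.46 CPM in those labelled ire1b. A link between the levels of these genes was not tested. Whether the counting used strand is not given in the sources used here, and the annotated genes do not overlap.

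PME1 was the member that stood higher with TM in every genotype, and the size differed between genotypes. It had 198, 187 and 175 CPM with TM in libraries labelled ire1a1b, against 75.6, 72.1 and 74.0 CPM with DMSO. Those labelled ire1b had 156, 156 and 159 CPM with TM, against 69.5, 74.9 and 74.9 CPM with DMSO. In WT it had 89.4, 86.7 and 92.8 CPM with TM, against 79.9, 74.2 and 77.1 CPM with DMSO. The TM and DMSO libraries did not overlap in any genotype, and with TM those labelled ire1a1b lay above those labelled ire1b, which lay above WT. Log2 fold changes were 1.34 ± 0.06, 1.10 ± 0.06 and 0.22 ± 0.06 in ire1a1b, ire1b and WT, and the WT one was no longer called without WT DMSO replicate 2 or 3 or WT TM replicate 3. They were 1.31, 1.11 and 0.25 without the first libraries of WT and ire1a1b.

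**Figure D2:**
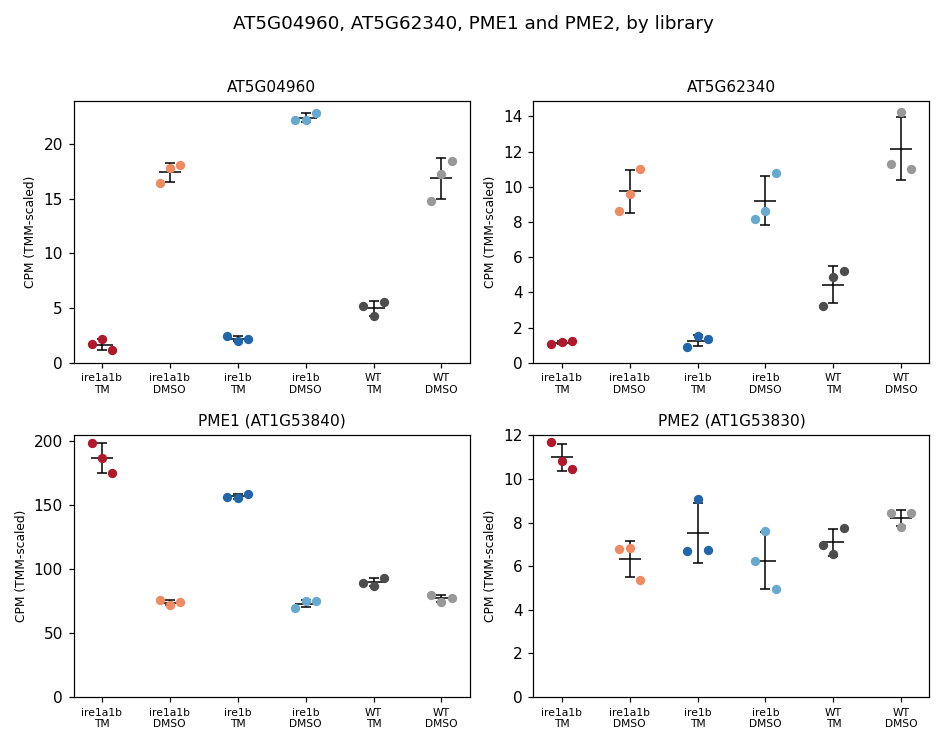
CPM (vertical axes, from 0) of AT5G04960, AT5G62340, PME1 and PME2 in the 6 groups named on the horizontal axes; points are libraries, horizontal marks the means and bars the SD (n = 3). PME1 with TM lies at 175 to 198 CPM in ire1a1b and at 86.7 to 92.8 CPM in WT, while AT5G04960 with TM is at 1.16 to 2.13 CPM in ire1a1b and 4.25 to 5.56 CPM in WT.

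Whether the TM response differed between genotypes was tested for the 7 members with a PME symbol, as the difference of the 2 log2 fold changes in edgeR's quasi-likelihood test. These 7 genes were chosen with results of the same libraries known, and the adjusted p-values below do not allow for that choice, so they are no independent support. The share of all tested genes called was 6.12% between ire1a1b and WT, 4.15% between ire1b and WT and 0.776% between ire1a1b and ire1b, against 5, 3 and 1 of the 10 members. AT5G04960 and AT5G62340 account for 2 of the members called in each comparison with WT. Their falls in the mutants took part in the choice, so no p-value is given for their differences. The PME1 response exceeded that of WT by 1.12 ± 0.08 in libraries labelled ire1a1b (adjusted p = 3.7e-07) and by 0.88 ± 0.08 in those labelled ire1b (adjusted p = 6.3e-06). The responses of ire1a1b and ire1b differed by 0.24 ± 0.08 (adjusted p = 0.35).

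PME2, the neighbour of PME1, stood higher with TM in libraries labelled ire1a1b. It had 11.7, 10.8 and 10.5 CPM with TM in those libraries, against 6.78, 6.82 and 5.37 CPM with DMSO. Those labelled ire1b had 6.70, 9.09 and 6.74 CPM with TM, against 6.23, 7.59 and 4.95 CPM with DMSO, and in WT 6.97, 6.55 and 7.75 CPM with TM, against 8.43, 7.80 and 8.44 CPM with DMSO. The groups did not overlap in ire1a1b or, in the other direction, in WT, and overlapped in ire1b. Log2 fold changes were 0.79 ± 0.15, 0.26 ± 0.15 and -0.21 ± 0.15 in ire1a1b, ire1b and WT, and 0.80, 0.26 and -0.18 without the first libraries of WT and ire1a1b. With DMSO, PME2 already lay below WT without overlap in both mutant labels. The log2 differences were -0.37 ± 0.15 in ire1a1b and -0.39 ± 0.15 in ire1b, and neither passed the threshold. These DMSO levels enter the differences of responses. The PME2 response in ire1a1b exceeded that of WT by 1.01 ± 0.21 (adjusted p = 0.0078). This was still called without the first libraries of WT and ire1a1b (0.98, adjusted p = 0.037), and was no longer called (0.97, adjusted p = 0.06) when the first library of every group was omitted, a choice made after seeing the data. It exceeded that of WT by 0.47 ± 0.21 in ire1b (adjusted p = 0.35), and those of ire1a1b and ire1b differed by 0.54 ± 0.21 (adjusted p = 0.54). PME2 is the closest relative of PME3, which did not stand higher with TM in any genotype.

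PME3, one of the most abundant pectin methylesterase transcripts of seedlings, had 199, 231 and 223 CPM with TM in libraries labelled ire1a1b, against 224, 224 and 233 CPM with DMSO. Those labelled ire1b had 186, 198 and 169 CPM with TM, against 229, 230 and 237 CPM with DMSO. In WT it had 140, 155 and 142 CPM with TM, against 227, 243 and 239 CPM with DMSO. The groups overlapped in ire1a1b and were apart in ire1b and WT, where the TM libraries were lower, those of WT more so. Log2 fold changes were -0.06 ± 0.07, -0.33 ± 0.07 and -0.70 ± 0.07 in ire1a1b, ire1b and WT. The response in ire1a1b exceeded that of WT by 0.64 ± 0.10 (adjusted p = 0.00089), that in ire1b did so by 0.37 ± 0.10 (adjusted p = 0.052), and those of ire1a1b and ire1b differed by 0.27 ± 0.10 (adjusted p = 0.49). Without the first libraries of WT and ire1a1b the log2 fold changes were -0.0087, -0.32 and -0.69, and the ire1b difference from WT passed the threshold, at 0.37 with adjusted p = 0.029.

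PME18 was lower with TM in all genotypes. It had 329, 393 and 341 CPM with TM in libraries labelled ire1a1b, against 444, 494 and 496 CPM with DMSO, and 244, 270.4 and 232 CPM with TM in those labelled ire1b, against 510.0, 504 and 567 CPM with DMSO. In WT it had 278, 302 and 332 CPM with TM, against 476, 462 and 513 CPM with DMSO. No TM library overlapped the DMSO libraries of its genotype, and with TM the libraries labelled ire1b were the lowest. Log2 fold changes with TM were -0.43 ± 0.09, -1.08 ± 0.09 and -0.67 ± 0.09 in ire1a1b, ire1b and WT, and -0.43, -1.07 and -0.62 without the first libraries of WT and ire1a1b.

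The PME18 response in ire1a1b exceeded that in ire1b by 0.65 ± 0.13 (adjusted p = 0.027), and this was the only member called between the mutant labels. It was no longer called when any 1 of 8 of the 12 libraries was left out, namely ire1b DMSO replicates 1 and 3, ire1b TM replicates 1 and 3, ire1a1b DMSO replicates 1, 2 and 3, or ire1a1b TM replicate 2, with values of 0.57 to 0.68. Without the first libraries of WT and ire1a1b it was 0.64 (adjusted p = 0.013). The response in ire1b lay below that of WT by 0.41 ± 0.13 (log2 difference -0.41, adjusted p = 0.11), and passed the threshold without the first libraries of WT and ire1a1b (-0.46, adjusted p = 0.032). Between ire1a1b and WT it was 0.24 ± 0.13 (adjusted p = 0.41).

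PME44, a pectin methylesterase, had 59.1, 69.3 and 49.0 CPM with TM in libraries labelled ire1a1b, against 70.4, 81.4 and 63.6 CPM with DMSO. In libraries labelled ire1b it had 47.2, 55.3 and 39.4 CPM with TM, against 65.2, 78.2 and 65.1 CPM with DMSO, and in WT 39.9, 36.5 and 34.7 CPM with TM, against 65.5, 76.7 and 59.2 CPM with DMSO. Its groups overlapped in ire1a1b, and in ire1b and WT the TM libraries were the lower ones. The log2 fold changes were -0.28 ± 0.15, -0.56 ± 0.15 and -0.86 ± 0.15 in ire1a1b, ire1b and WT, and -0.29, -0.55 and -0.93 without the first libraries of WT and ire1a1b. The ire1b one was no longer called without ire1b DMSO replicate 2 or ire1b TM replicate 3. With the replicate number as a block the ire1a1b one was called. PME44 overlaps AT4G33230 on the opposite strand, which held at most 0.25 CPM in any library.

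PME17, an enzyme that the subtilase SBT3.5 is known to process in roots, had 31.6, 50.3 and 47.4 CPM with TM in libraries labelled ire1a1b, against 41.7, 92.1 and 68.3 CPM with DMSO. In libraries labelled ire1b it had 20.3, 21.1 and 21.3 CPM with TM, against 39.1, 53.0 and 79.8 CPM with DMSO, and in WT 18.8, 18.3 and 22.4 CPM with TM, against 36.1, 62.0 and 76.4 CPM with DMSO. The TM libraries lay below the DMSO libraries in ire1b and WT and overlapped them in ire1a1b, and the DMSO libraries spread widely. The log2 fold changes were -0.65 ± 0.31, -1.45 ± 0.32 and -1.55 ± 0.32 in ire1a1b, ire1b and WT. Without the first libraries of WT and ire1a1b they were -0.72, -1.44 and -1.76. The ire1a1b one passed the threshold (-0.73) when the first library of every group was omitted, a choice made after seeing the data.

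PME41, an enzyme known for a part in the chilling response, had 57.4, 69.9 and 30.8 CPM with TM in libraries labelled ire1a1b, against 37.6, 89.0 and 43.3 CPM with DMSO. Those labelled ire1b had 26.3, 32.1 and 18.2 CPM with TM, against 53.5, 72.5 and 65.7 CPM with DMSO, and in WT 17.9, 17.2 and 10.6 CPM with TM, against 28.7, 57.9 and 40.5 CPM with DMSO. As for PME17, the groups were apart in ire1b and WT and overlapped in ire1a1b. The log2 fold changes were -0.11 ± 0.36, -1.32 ± 0.37 and -1.48 ± 0.38 in ire1a1b, ire1b and WT, and -0.40, -1.31 and -1.82 without the first libraries of WT and ire1a1b. The WT one was no longer called without WT DMSO replicate 2, WT TM replicate 2 or WT TM replicate 3, and the ire1b one without ire1b DMSO replicate 2, ire1b TM replicate 1 or ire1b TM replicate 3.

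The difference from WT of the response in ire1a1b did not pass the threshold for these 3 genes, at 1.37 ± 0.52 for PME41 (adjusted p = 0.17), 0.90 ± 0.44 for PME17 (adjusted p = 0.32) and 0.58 ± 0.21 for PME44 (adjusted p = 0.14). With the replicate number as a block, PME41 (1.39, adjusted p = 0.038) and PME44 (0.56, adjusted p = 0.0018) passed it. Whether replicates 2 and 3 are paired by number was not shown, so these calls rest on an assumed pairing. PME41 was also called, at 1.86, without ire1a1b DMSO replicate 2. In ire1b the differences from WT were 0.15 (adjusted p = 0.98), 0.10 (adjusted p = 0.98) and 0.30 (adjusted p = 0.66) for PME41, PME17 and PME44. Between ire1a1b and ire1b they were 1.21 (adjusted p = 0.61), 0.81 (adjusted p = 0.83) and 0.27 (adjusted p = 0.97). At this spread between libraries a difference could not be shown for PME17.

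**Figure D3:**
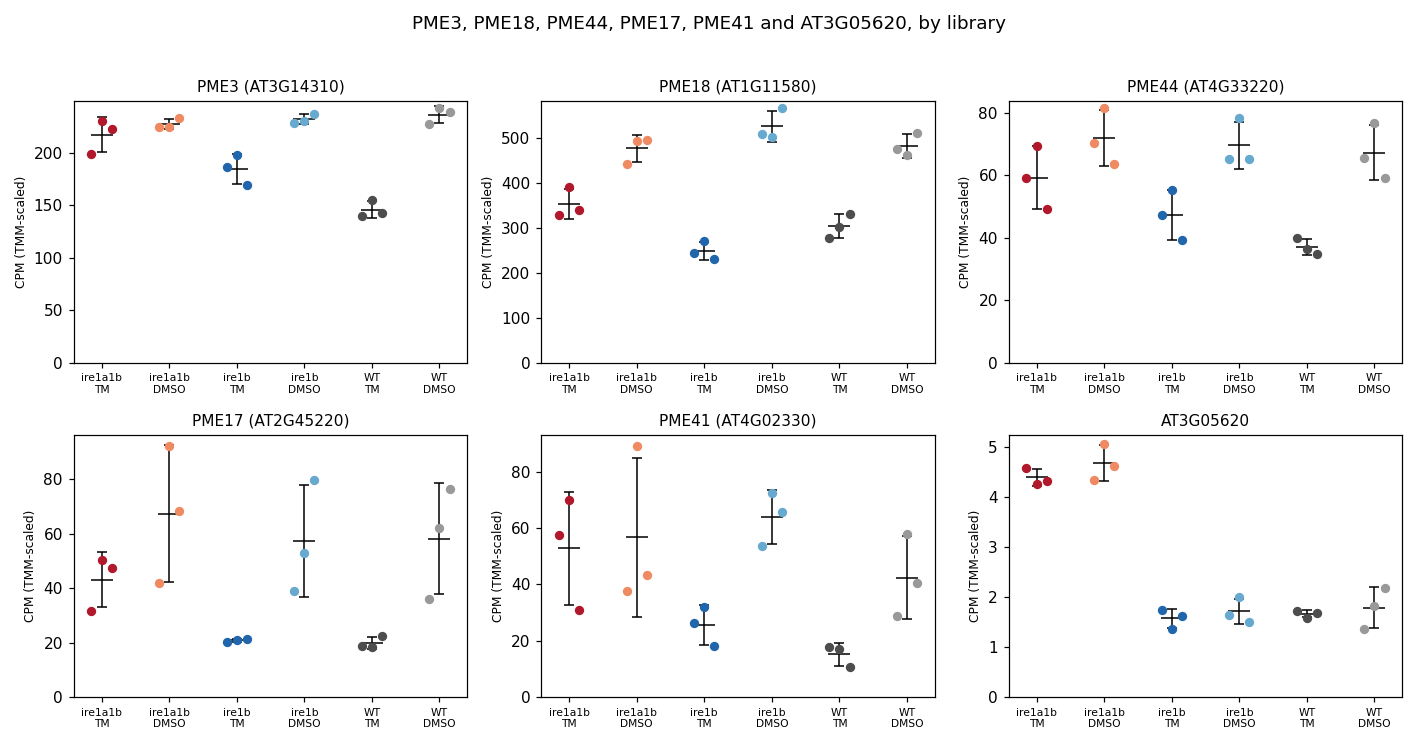
CPM (vertical axes, from 0) of PME3, PME18, PME44, PME17, PME41 and AT3G05620 in the 6 groups named on the horizontal axes; points are libraries, horizontal marks the means and bars the SD (n = 3). AT3G05620 lies at 4.26 to 5.05 CPM in all 6 libraries labelled ire1a1b and at 1.35 to 2.17 CPM in the other 12. With DMSO the libraries range from 36.1 to 92.1 CPM for PME17 and from 28.7 to 89.0 CPM for PME41.

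AT3G05620, a pectin methylesterase with both domains, showed little difference with TM and stood higher in the libraries labelled ire1a1b, a difference by which it may have been chosen. It had 4.57, 4.26 and 4.32 CPM with TM and 4.34, 5.05 and 4.62 CPM with DMSO in libraries labelled ire1a1b. In libraries labelled ire1b it had 1.73, 1.35 and 1.63 CPM with TM and 1.64, 1.99 and 1.51 CPM with DMSO, and in WT 1.72, 1.58 and 1.68 CPM with TM and 1.36, 1.82 and 2.17 CPM with DMSO. The 6 libraries labelled ire1a1b all lay above the 12 others. With DMSO the log2 difference was 1.40 ± 0.15 against WT and 1.44 ± 0.16 against ire1b, and with TM over DMSO the log2 fold changes were -0.09 ± 0.14, -0.13 ± 0.17 and -0.09 ± 0.17 in ire1a1b, ire1b and WT. Without the first libraries of WT and ire1a1b the difference from WT with DMSO was 1.29 and the log2 fold changes were -0.17, -0.13 and -0.28. The genes most like it over the 18 libraries were XTH10 (r = 0.96), AT5G04680, GSTF4 (both r = 0.95), AT1G77700 and AT4G09950 (both r = 0.94). Neither neighbouring AT3G05610 nor any other gene overlaps it in the annotation.

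The remaining 9 members did not pass the threshold with DMSO in any comparison of genotypes. Of all tested genes, 0.131% were called between ire1a1b and WT, 0.0291% between ire1b and WT and 0.16% between ire1a1b and ire1b, and the members called were 1, 0 and 1 of 10, which is AT3G05620 each time, and nothing is read from that count since the gene may have been chosen by this difference. With an unadjusted p below 0.05 there were 2, 3 and 2 members, and DESeq2 called 1, 0 and 1. The largest log2 differences among the 9 were those of PME41, at 0.59 ± 0.36 between ire1b and WT (adjusted p = 0.88) and 0.42 ± 0.36 between ire1a1b and WT (adjusted p = 1 in edgeR), followed by AT5G04960, at 0.41 ± 0.13 between ire1b and WT (adjusted p = 0.88).

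Besides the 10 members, the reference names 121 further genes of the family in the table, 36 of them enzymes and 85 with under 2 of the catalytic motifs. The family was taken by name. Some genes annotated with a catalytic methylesterase domain but named as pectin lyase-like, such as PPME1, are counted with the other pectin genes instead. Of the 85, the annotation gives 76 an inhibitor domain alone, 4 a catalytic domain, and 5 neither (products named pectinesterase that hold a domain of unknown function). The filter was passed by 52 genes, 23 enzymes and 29 with under 2 motifs, 25 of which have an inhibitor domain alone. With TM, 7 of these 52 fell and 1 rose in libraries labelled ire1a1b, 14 fell and 0 rose in those labelled ire1b, and 16 fell and 0 rose in WT. The shares that fell were 13.5%, 26.9% and 30.8%, against 6.59%, 11.6% and 5.77% of all tested genes. The genes called numbered 9, 24 and 18 without the first libraries of WT and ire1a1b. With the replicate number as a block the genes called came to 16, 25 and 19, and with only the groups of each comparison in the fit to 4, 23 and 6. Leaving out WT TM replicate 2 gave 10 called in WT, and leaving out ire1a1b DMSO replicate 2 or 3 or ire1a1b TM replicate 1 or 3 gave 5 in ire1a1b. The median log2 fold change was -0.14, -0.32 and -0.41 in ire1a1b, ire1b and WT, against -0.02, -0.01 and -0.02 over all tested genes. Enzymes made up 4, 10 and 9 of the genes that fell, and genes with an inhibitor domain alone 3, 4 and 7.

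**Figure D4:**
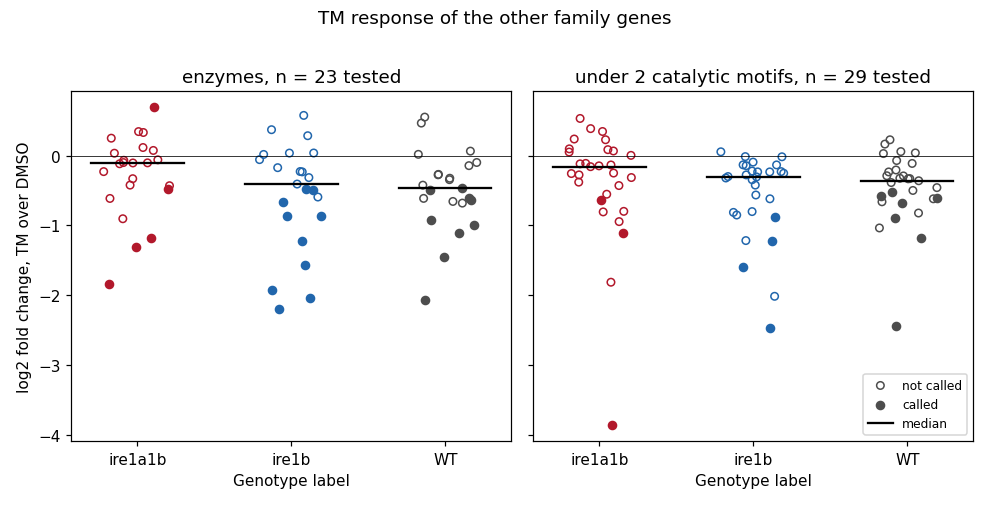
Log2 fold change with TM over DMSO (vertical axis) of the 52 further family genes tested, enzymes on the left and genes with under 2 catalytic motifs on the right, in libraries labelled ire1a1b, ire1b and WT; filled points passed an adjusted p below 0.05 and lines are medians. Filled points lie below 0 except AT5G04970 in ire1a1b, and medians over the 52 genes run from -0.14 in ire1a1b to -0.41 in WT.

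RHS12, an enzyme named for root hairs, fell in all 3 genotypes. It averaged 3.15 ± 0.0993 CPM with TM and 7.84 ± 0.768 CPM with DMSO in libraries labelled ire1a1b (adjusted p = 3e-05), 2.46 ± 0.376 and 7.27 ± 0.335 CPM in those labelled ire1b (adjusted p = 4.9e-06), and 2.98 ± 0.502 and 6.47 ± 1.44 CPM in WT (adjusted p = 0.0003; all SD, n = 3, edgeR). AT1G02810 averaged 5.08 ± 1.20 and 18.2 ± 2.10 CPM in ire1a1b (log2 fold change -1.83 ± 0.14, adjusted p = 1.6e-07) and 3.59 ± 0.224 and 16.6 ± 0.829 CPM in ire1b (-2.20 ± 0.15, adjusted p = 2e-08). In WT the fall of AT1G02810 was -0.64 ± 0.13 (adjusted p = 0.0048), and its response differed from WT by -1.19 ± 0.19 in ire1a1b (adjusted p = 0.0012) and by -1.56 ± 0.20 in ire1b (adjusted p = 0.00018). It was the only gene of the 52 whose response was called different between ire1b and WT, and 2 were called there without WT DMSO replicate 2 or WT TM replicate 3. Between ire1a1b and WT 6 were called, 5 higher and 1 lower (10 with the replicate block, 3 without WT TM replicate 2). The shares of the 52 called were 1.92% between ire1b and WT and 11.5% between ire1a1b and WT. Of all tested genes 4.15% and 6.12% were called in these comparisons, and 0.776% between ire1a1b and ire1b. Between ire1a1b and ire1b 0 of 52 were called by edgeR, with 4 at an unadjusted p below 0.05 and 1 called by DESeq2 or without ire1a1b DMSO replicate 2.

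AT2G47550 averaged 5.70 ± 0.108 CPM with TM and 23.6 ± 6.27 CPM with DMSO in libraries labelled ire1b, and 5.69 ± 0.296 and 15.7 ± 4.83 CPM in WT, falls of -2.04 ± 0.27 and -1.46 ± 0.27 on the log2 scale (adjusted p = 4.4e-05 and 0.0021 in edgeR). AT3G10720 averaged 65.9 ± 11.3 and 125 ± 18.4 CPM in WT (adjusted p = 0.0058). The inhibitor-type gene AT5G62350, beside AT5G62340 on chromosome 5, averaged 46.0 ± 9.69 and 71.6 ± 11.8 CPM in ire1a1b (log2 fold change -0.64 ± 0.20, adjusted p = 0.047). AT5G62350 was also lower with TM, without overlap, in the other genotypes. It averaged 32.9 ± 3.47 and 60.9 ± 6.90 CPM in ire1b, and 41.85 ± 12.4 and 67.1 ± 13.5 CPM in WT. In ire1a1b its fall was smaller than that of AT5G62340, and the difference between the genes was not tested.

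**Figure D5:**
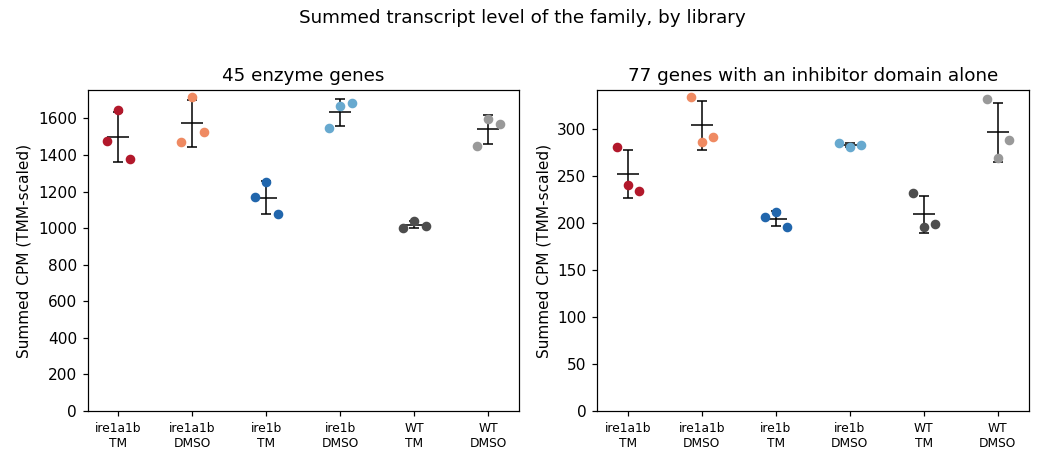
Summed CPM (vertical axes, from 0) of the 45 enzyme genes and the 77 genes annotated with an inhibitor domain alone, members included, in the 6 groups named on the horizontal axes; points are libraries, horizontal marks the means and bars the SD (n = 3). With TM the enzyme sum is 1376 to 1646 CPM in ire1a1b, 1075 to 1254 CPM in ire1b and 1003 to 1039 CPM in WT. Methylesterase genes counted with the other pectin genes are not in the sums.

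Summed over the 45 enzyme genes taken as the family by name, the transcripts came to 1499 ± 136.5 CPM with TM and 1573 ± 128 CPM with DMSO in libraries labelled ire1a1b (SD, n = 3). In those labelled ire1b the sums were 1167 ± 89.7 and 1633 ± 75.3 CPM, and in WT 1019 ± 18.5 and 1540 ± 77.7 CPM. The TM and DMSO sums overlapped in ire1a1b and were apart in ire1b and WT, and the TM sums of ire1a1b lay above those of ire1b and WT. The 9 enzyme members held 59.6% to 64.5% of the enzyme sum as group means, so they carry most of it. They were chosen with results of these data known, so the enzyme sums are a description and no independent result for the family. The sum over the 77 genes with an inhibitor domain alone was 252 ± 25.4 CPM with TM and 304 ± 26.2 CPM with DMSO in ire1a1b, 205 ± 7.85 and 283 ± 2.11 CPM in ire1b, and 209 ± 19.7 and 296 ± 31.8 CPM in WT, with TM and DMSO apart in every genotype. With the first libraries of WT and ire1a1b left out, the enzyme sums in ire1a1b were 1376 to 1646 against 1528 to 1718 CPM and those in WT 1014 to 1039 against 1572 to 1598 CPM, and the inhibitor sums 234 to 240.4 against 286 to 291 CPM and 196 to 199 against 270 to 288 CPM.

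Among other genes that act on pectin, 66 of 124 genes whose product or gene name mentions a polygalacturonase, pectate lyase, pectin lyase or pectin acetylesterase passed the filter. In their annotation 17 of the 124 have a catalytic methylesterase domain. A further 4 are named as polygalacturonase inhibitors or a receptor-like protein (PGIP1, PGIP2, AT5G23390 and RLP42). Others that may be no such enzyme, such as JP630, named a BURP domain-containing protein, were not split off. With TM, 19 fell and 3 rose in libraries labelled ire1a1b, 22 fell and 4 rose in those labelled ire1b, and 19 fell and 1 rose in WT, with median log2 fold changes of -0.23, -0.31 and -0.37. All tested genes were called lower at 6.59%, 11.6% and 5.77% and higher at 8.27%, 10.9% and 6.13%. The 4 inhibitor or receptor-like genes hold 1 of the genes that rose in ire1a1b, and 1 that rose and 1 that fell in ire1b. Of 9 genes of pectin synthesis and methylation, 0 were called in ire1a1b (3 at an unadjusted p below 0.05), 2 rose in ire1b and 1 fell in WT. Of 3 subtilase-type proteases that process such enzymes, 0 were called by edgeR in any genotype, with 0, 1 and 0 at an unadjusted p below 0.05 in ire1a1b, ire1b and WT.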

How the data were processed

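Polyadenylated RNA of 18 seedling libraries was measured. The authors deposited raw counts per gene, made with STAR 2.4.0 and HTSeq 0.6.0 on TAIR10 per the submitters' processing notes, which also name DESeq2; the counting mode, strand setting and annotation version are not given in the sources used here. Summary lines of the count files, which name no gene, were 5.71% to 6.22% of each library and were left out. Of 27416 identifiers, 26719 matched the RefSeq TAIR10.1 tables.

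The members and gene lists were chosen with earlier results of these data known. The 3 tunicamycin responses, their 3 differences between genotypes and the 3 genotype differences with DMSO were fitted with edgeR 4.0.16 in R 4.3.3 (glmQLFit robust and glmQLFTest, TMM factors of 0.947 to 1.066, filterByExpr, 6 group means, Benjamini-Hochberg over 20615 genes, threshold 0.05). Standard errors are the log2 fold change over the square root of F. Levels are TMM-scaled counts per 1000000 (CPM). Correlations used log2 CPM with a prior count of 2. Named genes are all 10 members, and from the wider family up to 3 called genes in each direction with the largest change, of mean log2 CPM of at least 2 and with no overlap between groups, besides IRE1A, IRE1B, BIP3 and the 5 genes most like each of 3 members; AT5G04970 in the other genotypes and AT1G02810 in WT were added after their values were seen. A test planned for AT3G05620 with DMSO is not printed, since that difference may have chosen it. Enzymes carry at least 2 of 4 catalytic motifs in the RefSeq protein; sums for inhibitors use the genes annotated with an inhibitor domain and no catalytic domain, a choice made after seeing the data.

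Replicate numbers come from the sample titles; a separate replicate tag in the labels gives other numbers and was not used, and the block, the pairs and the naming of first libraries rest on the titles. Deviations from the group means of libraries with the same number correlated at 0.15 or more in all pairs of the 3 tunicamycin responses, and at 0.34 and 0.58 or more in the ire1a1b against WT difference of responses and DMSO difference, so there the numbers pair the libraries. In the other 4 comparisons the lowest correlation was 0.012 to 0.069. Alternatives were another normalisation (RLE), no filter, a filter of 1 CPM in 3 libraries, the replicate block, fits of only the groups compared, DESeq2 1.42.0, and fits that left libraries out.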

Additional observations from a re-analysis of the deposited data

Results flagged for a closer look

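Differences between genotypes in the response to TM passed an adjusted p below 0.05 in edgeR's quasi-likelihood test for 4 members with a PME symbol. These genes had been chosen with results of these data known. The directions in same-numbered libraries come from the same data, and neither they nor the differences are independent support. The log2 fold change of PME1 exceeded that of WT by 1.12 in libraries labelled ire1a1b and by 0.88 in those labelled ire1b, and in each of the 3 pairs of same-numbered libraries PME1 was higher with TM in all genotypes. PME2 exceeded the WT response by 1.01 in ire1a1b, where it was higher in 3 of 3 pairs and in WT lower in 3 of 3. PME3 exceeded it by 0.64 in ire1a1b, where it was lower in 2 of 3 pairs, against 3 of 3 in WT. PME18 exceeded the response in ire1b by 0.65 in ire1a1b, and was lower in 3 of 3 pairs in both. The libraries labelled ire1b and ire1a1b did not hold less IRE1B transcript than WT, so these differences are between the labels.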

How the results depend on the processing

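Of 1440 refitted log2 values of the members, 1397 kept their side of the threshold, 28 were no longer called, 15 became called and 0 called values changed sign. The calls of PME1 in WT and PME18 in ire1a1b with TM ended in fits of only the groups compared, and those of PME41 and PME44 in ire1b when the first library of every group was omitted, while PME17 in ire1a1b became called there. Depth limits AT5G62340, AT5G04960 and AT3G05620, with 21 to 24 reads in their poorest libraries.

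In comparisons where same-numbered libraries correlated, the replicate block called 4844 genes in ire1a1b with TM (3064 without it) and 4142 in WT with TM (2453). It called 2341 in the ire1a1b against WT difference of responses (1262). With the block, family genes without the members came to 16 in ire1a1b (8), 25 in ire1b (14) and 10 in that difference (6). Beside the calls named with the results it added 1 member, PME44, to the 5 called with TM in ire1a1b, and changed no other member's call in these comparisons. The other 4 comparisons held same-numbered libraries with little correlation. There the block called 1567 genes (855), 5 members (3, with PME3 and PME18 added) and 6 family genes (1) in the ire1b against WT difference of responses. Between ire1a1b and ire1b it called 316 genes (160) and 1 family gene (0).

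Fits of only the groups compared called 6 family genes and 848 genes in WT with TM, 23 family genes in ire1b, 4 family genes and 1567 genes in ire1a1b, 3 family genes in the ire1a1b against WT difference and 0 members between ire1a1b and ire1b. With DMSO they called 0 genes between ire1b and WT, 0 members and 1 gene between ire1a1b and WT, and 0 members and 7 genes between ire1a1b and ire1b (6, 27 and 33 genes from all groups). The fit omitting the first libraries of WT and ire1a1b called 24 family genes in ire1b with TM, 5 members, 3 family genes and 1295 genes in the ire1b against WT difference, and 254 genes between ire1a1b and ire1b. The fit omitting the first library of every group, added after seeing the data, called 2 and 3 family genes in the ire1b and ire1a1b differences from WT, 0 members between ire1a1b and ire1b, and 3 and 17 genes with DMSO in ire1b and ire1a1b against WT. DESeq2 called 5 members and 3 family genes in the ire1b difference from WT, 1 family gene and 265 genes between ire1a1b and ire1b, and 10 genes with DMSO between ire1b and WT. Why these counts moved was not tested, beyond the fewer libraries in each fit that leaves some out.

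Leaving out each library in turn gave 5 to 5 members, 5 to 8 family genes and 2327 to 3025 genes in ire1a1b with TM, 6 to 8, 10 to 16 and 3600 to 3811 in ire1b, and 6 to 8, 10 to 14 and 1553 to 2380 in WT. For the differences of responses the members, family genes and genes called were 3 to 4, 1 to 2 and 624 to 830 (ire1b against WT), 5 to 6, 3 to 7 and 981 to 1351 (ire1a1b against WT), and 0 to 1, 0 to 1 and 114 to 142 (ire1a1b against ire1b). With DMSO the genes called were 0 to 6, 20 to 23 and 24 to 30 for ire1b against WT, ire1a1b against WT and ire1a1b against ire1b.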
